A study of Mus musculus with 18 samples.

Results

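NK cell receptors and cytotoxic effectors are described here through 10 genes of 49585 in the deposited table: Ncr1, Klrk1, Klrd1 and Klre1 (receptors), Il2rb (a cytokine receptor chain), Gzma, Gzmb, Prf1 and Nkg7 (killing), and Xcl1 (a chemokine). They were chosen by name as genes of NK cells, with no cutoff on a measured value but with earlier results of these data known, and all 10 passed the filter on low counts that left 16917 genes for testing. The samples were 18 lung metastases of AT3, a mouse mammary carcinoma cell line labelled here with GFP and mCherry. Tumours were started in the mammary fat pad and seeded the lungs without further injection, and lung lesions were cut out by laser from frozen sections. All hosts, controls included, shared 1 immunodeficient background, given as Rag2-/-IL2rg-/- in the strain label and as Rag1-/-IL2rg-/- in the growth protocol. Such mice form no T, B or NK cells of their own but keep myeloid cells.

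Mice of the NK transferred group received 60000 murine NK cells, activated in culture, by vein on day 11, and mice of the Ctrl group received PBS. Ages of the mice are not given in the sources used here. The NK transferred group held 7 lesions of 2 mice, written NK1 (3 lesions) and NK2 (4 lesions), and the Ctrl group 11 lesions of 3 mice, written KO1 (5 lesions), KO2 (4 lesions) and KO3 (2 lesions). NK2-3 is then lesion 3 of mouse NK2. Lesions of a mouse share their host and, in the NK mice, a single transfer of cells, so the mouse was the replicate. The comparison asks which NK cell transcripts were present in lesions of the hosts with transferred cells, against the background read in hosts without them.

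NK cells are innate lymphocytes that kill tumour and infected cells without rearranged antigen receptors. Activating receptors such as NKp46 (Ncr1) and NKG2D (Klrk1) read ligands on the target cell, and CD94 (Klrd1) forms inhibitory or activating dimers with NKG2 chains. An engaged NK cell releases granules in which perforin (Prf1) opens the way for granzymes (Gzma, Gzmb), the proteases that start target cell death. IL-15, read through the chain encoded by Il2rb together with the common gamma chain encoded by Il2rg, keeps NK cells alive, and XCL1 attracts cross-presenting dendritic cells.

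The DNA just upstream of a receptor gene and of both granzyme genes is shown to let a reader see one short stretch that these genes share. Each sequence is the 250 bases before the RefSeq start of the gene on GRCm38.p6, read 5′ to 3′ on the strand of the gene. Ncr1 lies on the plus strand (chr7:4337474-4337723), Gzma on the minus strand (chr13:113100982-113101231) and Gzmb on the minus strand (chr14:56262335-56262584). Capitals mark TGTGGT, the core bound by Runx factors, or its reverse complement ACCACA.
Ncr1: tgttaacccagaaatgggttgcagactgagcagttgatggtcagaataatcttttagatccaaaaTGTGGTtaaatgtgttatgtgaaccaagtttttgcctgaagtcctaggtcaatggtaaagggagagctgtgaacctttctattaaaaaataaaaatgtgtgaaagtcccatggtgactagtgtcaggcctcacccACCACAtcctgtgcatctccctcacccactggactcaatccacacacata
Gzma: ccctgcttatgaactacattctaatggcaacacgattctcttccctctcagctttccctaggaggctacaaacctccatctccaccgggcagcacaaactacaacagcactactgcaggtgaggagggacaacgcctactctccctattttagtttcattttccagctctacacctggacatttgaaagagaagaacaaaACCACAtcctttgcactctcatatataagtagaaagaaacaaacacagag
Gzmb: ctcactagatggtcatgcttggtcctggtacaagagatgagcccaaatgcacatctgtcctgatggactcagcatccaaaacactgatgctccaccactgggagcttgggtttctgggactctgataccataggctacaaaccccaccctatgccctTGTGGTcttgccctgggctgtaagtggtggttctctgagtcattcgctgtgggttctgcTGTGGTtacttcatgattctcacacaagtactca
RefSeq promoters were matched for 8 of the 10 genes, all but Il2rb and Klrd1. TGTGGT was found on either strand in 8 of these 8, against 14.04% of 32817 mouse promoters of the same length. GGTGTG, a T-box core, was found in 2 of 8 against 16.3%, AGGAAG, an Ets core, in 3 of 8 against 29.5%, and TTCNNNGAA, a STAT palindrome, in 1 of 8 against 7.01%. These are matches of letters, and binding was not measured.

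Some libraries stand apart and touch the results below. The lesions of mouse NK1 gave 47.6% to 65.3% of their counts to the mitochondrial ribosomal RNA mt-Rnr2, against 13.7% to 22.8% in mouse NK2 and 12.1% to 68.7% in controls. Total counts were 2964242 to 11798897 in lesions of mice with NK cells and 5690467 to 9816244 in controls. Lesion NK1-3 was the shallowest, and a single count there was worth 0.720 CPM (counts per 1e6 of the scaled library size), so that 0 counts allow up to 2.16 CPM. Lesions KO1-1 and KO1-3 are labelled Ctrl, yet each held counts of 9 of the 10 genes, while the other 9 control lesions held 1 to 4 of them. Results that rest on these 2 libraries are given with and without them. Because they were picked for these counts, values without them are a description only.

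The signal of the 10 genes was higher in both mice with NK cells than in any control mouse. Summed over the 10 genes it was 49.8 CPM in NK1 and 24.3 CPM in NK2, against 5.65, 2.39 and 4.96 CPM in KO1, KO2 and KO3. For 8 of 10 genes both mice with NK cells lay above all 3 controls, against 7.94% of all genes tested. Prf1 and Klrd1 were the exceptions, and the count was 5 of 10 without lesion NK1-1. No member passed the test across all genes (edgeR quasi-likelihood, adjusted p = 0.9998 for each), and 0% of the 16917 genes did. Other settings called members higher: edgeR without a filter on low counts called Ncr1, Gzma and Gzmb (3 of 10, against 0.535% of all genes), and DESeq2 called Ncr1 (1 of 10, against 0.154%). At an unadjusted p under 0.05, 4 of 10 members were higher (Ncr1, Xcl1, Il2rb and Klrd1), against 1.55% of all genes. The median log2 fold change was 3.32 over the 10 genes and -0.03 over all genes tested. In tissue pieces, fewer NK cells and less RNA per NK cell cannot be told apart.

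**Figure D1:**
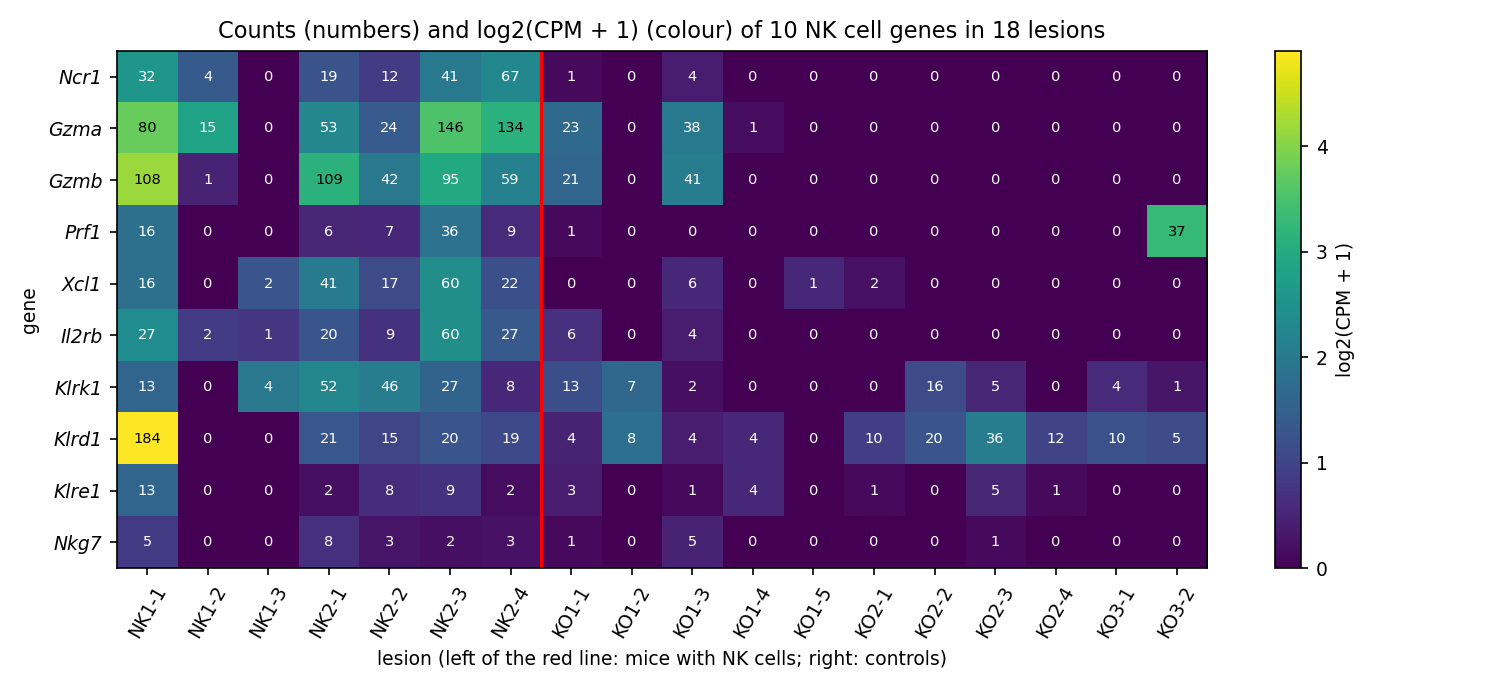
Counts (printed numbers) and log2(CPM + 1) (colour scale) of the 10 genes, in rows, in the 18 lesions, in columns, with mice that received NK cells left of the red line and controls right of it. Counts fill the NK2 columns and NK1-1, thin out in NK1-2 and NK1-3, and appear among controls mainly in KO1-1 and KO1-3, with Prf1 in KO3-2 and Klrd1 in 10 of 11 control lesions.

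Among the receptors, Ncr1 had the largest fold change of the 10 genes. Ncr1 (chromosome 7, 4337724 to 4345164) encodes NKp46, an activating receptor widely used to mark NK cells. It had 3.43 and 2.48 CPM in NK1 and NK2, 0.139 CPM in KO1, and no count in KO2 and KO3. Over the 7 lesions with NK cells its lowest, median and highest levels were 0, 1.62 and 5.05 CPM, and over the 11 control lesions 0, 0 and 0.310 CPM. In 6 of the 7 lesions it was above every control lesion, and NK1-3 had no count. The fitted log2 fold change was 5.71 ± 1.52 (SE, n = 2 against 3 mice). All 5 control counts came from KO1-1 (1 count) and KO1-3 (4 counts). Set against the other 9 control lesions, the 175 counts of the mice with NK cells were at least 62.7-fold higher, with a floor of 3 counts over those lesions. Setting aside the 2 lesions with counts fixed the 0 counts of the other 9, so nothing is read from that value.

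Klrk1 (chromosome 6, 129610323 to 129623864) encodes NKG2D, which binds stress-induced ligands. It was higher in both mice with NK cells, by less than Ncr1. Klrk1 had 1.62 and 2.37 CPM in NK1 and NK2 and 0.613, 0.461 and 0.435 CPM in KO1, KO2 and KO3. This gave a log2 fold change of 1.98 ± 0.916. Unlike Ncr1, Klrk1 had counts in 7 of 11 control lesions, and only 31.3% of the control counts lay in KO1-1 and KO1-3. By lesion its lowest, median and highest levels were 0, 2.05 and 3.79 CPM with NK cells and 0, 0.236 and 2.15 CPM in controls, so the lesions overlapped, and 3 of 7 stood above every control lesion. Its highest control lesion was KO1-2 (7 counts, 2.15 CPM), where Ncr1, Gzma, Gzmb and Il2rb all had 0 counts.

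Klrd1 (chromosome 6, 129591782 to 129598775), which encodes CD94, was high in a single lesion. It had 17.5 CPM in NK1 but 1.34 CPM in NK2, beside 0.557, 1.71 and 1.31 CPM in KO1, KO2 and KO3. NK2 was thus within the range of the controls. Lesion NK1-1 held 184 of the 259 Klrd1 counts of the mice with NK cells, or 71.0%, and the other 2 lesions of NK1 had none. The log2 fold change was 2.97 ± 1.06 with all lesions and -0.63 ± 1.34 without NK1-1. In controls Klrd1 had counts in 10 of 11 lesions, with 105 of the 113 counts outside KO1-1 and KO1-3. KO2-3 was the highest of them (36 counts, 3.23 CPM), above each of the 4 NK2 lesions (1.05 to 1.53 CPM).

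Klre1 (chromosome 6, 129577905 to 129585827) encodes a lectin-like receptor that pairs with KLRI1 or KLRI2, and its gene is the neighbour of Klrd1 and Klrk1. Klre1 was the receptor with the fewest counts, 34 with NK cells and 15 in controls. It had 1.24 and 0.375 CPM in NK1 and NK2 and 0.223, 0.154 and 0 CPM in KO1, KO2 and KO3, and NK1-1 held 38.2% of the counts of the mice with NK cells. The log2 fold change was 2.48 ± 1.40 and dropped to 0.82 ± 1.59 without NK1-1. As for Klrk1 and Klrd1, most control counts (11 of 15) lay outside KO1-1 and KO1-3. These 2 lesions were picked for their counts, so nothing is read from that split. Over all 11 control lesions, Klrk1, Klrd1 and Klre1 had counts in 7, 10 and 6, and Ncr1 in 2.

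Fat cell and heart muscle transcripts also stood high in NK1-1, the lesion with the most Klrd1. The 5 fat cell markers summed to 1045 CPM there, against 14.2 to 322 CPM in the other 6 lesions with NK cells and 28.8 to 175 CPM in controls. All 477 counts of Adipoq, the fat cell hormone adiponectin, were in NK1-1. The 5 heart muscle markers summed to 179 CPM in NK1-1 and to at most 24.7 CPM in any other lesion. The part of these tissues in the Klrd1 level was not tested.

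Il2rb, the IL-2 and IL-15 receptor chain (chromosome 15, 78479256 to 78495271), was the only member with counts in all 7 lesions of mice with NK cells, and in each of them it was above every control lesion. Levels were 2.86 and 2.07 CPM in NK1 and NK2, 0.278 CPM in KO1, and no count in KO2 and KO3. By lesion the lowest, median and highest levels were 0.627, 1.46 and 4.36 CPM with NK cells and 0, 0 and 0.584 CPM in controls. In NK1-3 the level rests on 1 count and in NK1-2 on 2 counts. The fitted difference was a log2 fold change of 4.53 ± 1.61. All 10 control counts were in KO1-1 (6 counts) and KO1-3 (4 counts). The 146 counts with NK cells were at least 52.3-fold higher than the floor of the other 9 control lesions. As for Ncr1, those 9 have 0 counts by choice, and nothing is read from the value.

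Its partner Il2rg is deleted in the hosts and intact in normal NK cells. Of its counts, 138 were in 6 of the 7 lesions with NK cells and 55 in 9 of the 11 controls. The means were 1.66 ± 0.862 CPM (SD, n = 2 mice) against 0.562 ± 0.406 CPM (n = 3). The log2 fold change was 1.55 ± 1.04, and both mice with NK cells lay above all controls. KO1-4 held 27 of the 55 control counts and only 1 count of Gzma among the 7 members outside the Klr genes. The exons that the deletion removes are not named in the labels, so counts in controls do not check the genotype. Rag1 had 1 count in all 18 lesions, and Rag2 had 0 to 20 counts per lesion in both groups.

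The granzymes were the most abundant effectors. Gzma (chromosome 13, 113093825 to 113100981) had 9.04 and 6.37 CPM in NK1 and NK2, 1.73 CPM in KO1, and no count in KO2 and KO3. Gzmb (chromosome 14, 56258838 to 56262260) had 10.4 and 5.44 CPM in NK1 and NK2, with the same 1.73 CPM in KO1 and no count in KO2 and KO3. Both genes thus had 62 control counts, and 61 of these for Gzma and all 62 for Gzmb came from KO1-1 and KO1-3. The log2 fold changes were 3.68 ± 1.77 for Gzma and 3.71 ± 1.78 for Gzmb with all lesions, and that of Gzmb was 2.32 ± 2.02 without NK1-1. Without KO1-1 and KO1-3 the fitted value for Gzma was 8.47 ± 1.37, with 1 control count left in KO1-4. For Gzmb the 414 counts with NK cells were then at least 148-fold higher than a floor of 3 counts over the other 9 control lesions. Setting aside the 2 lesions with such counts fixed the low counts of the other 9. Nothing is read from these 2 values.

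By lesion Gzma reached a lowest, median and highest level of 0, 6.09 and 12.6 CPM with NK cells, and 0, 0 and 2.95 CPM in controls. Gzmb reached 0, 3.43 and 17.03 CPM with NK cells and 0, 0 and 3.18 CPM in controls. NK1-3 had no count of either gene. In 5 lesions with NK cells Gzma was above every control lesion, and in 4 Gzmb was. NK2-2 was below KO1-3 for both genes, and NK1-2 was below it for Gzmb, so the granzyme level of KO1-3 overlapped that of the lesions with NK cells.

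The balance of Gzma and Gzmb differed between lesions of the same mouse. Gzmb made up 67.3% of the 162 Gzma and Gzmb counts in NK2-1 (95% exact binomial interval 59.5% to 74.4%) and 63.6% of 66 in NK2-2 (50.9% to 75.1%). In NK2-3 it was 39.4% of 241 (33.2% to 45.9%), and in NK2-4 30.6% of 193 (24.2% to 37.6%). The intervals of NK2-1 and NK2-2 overlap neither that of NK2-3 nor that of NK2-4. In NK1-1 the share was 57.4% of 188 (50.04% to 64.6%), and in NK1-2 1 of 16 counts was Gzmb. The 2 control lesions with counts of both genes lay between, at 47.7% of 44 in KO1-1 (32.5% to 63.3%) and 51.9% of 79 in KO1-3 (40.4% to 63.3%). These intervals cover counting error only, and reads without molecular identifiers are not independent molecules.

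**Figure D2:**
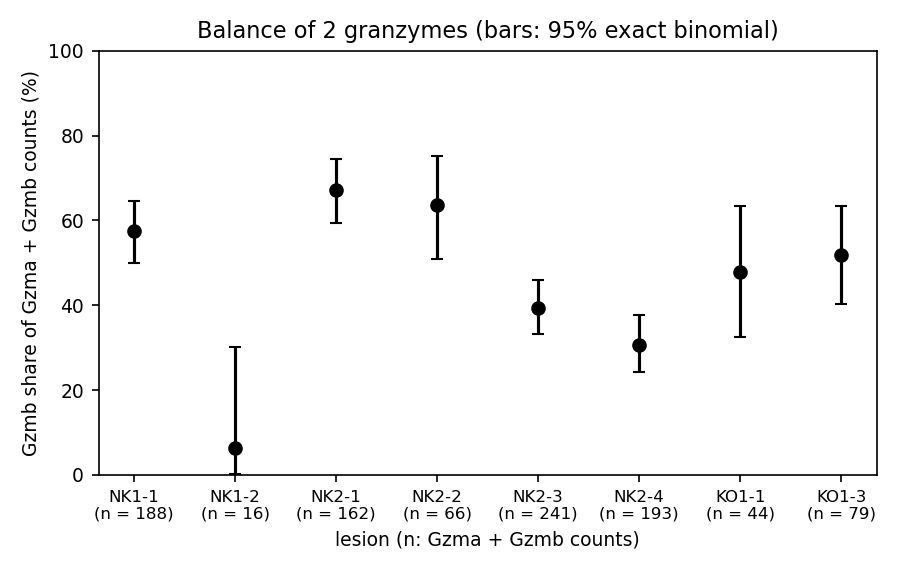
Share of Gzmb among Gzma and Gzmb counts in percent (y axis) for the 8 lesions with at least 16 such counts (x axis, with their number), with 95% exact binomial intervals as bars. NK2-1 and NK2-2 lie at 67.3% and 63.6%, above NK2-3 and NK2-4 at 39.4% and 30.6%.

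Prf1 (chromosome 10, 61297833 to 61304680), the pore-forming protein perforin, did not separate the groups. It had 1.52 and 1.04 CPM in NK1 and NK2, 0.0278 and 0 CPM in KO1 and KO2, and 3.22 CPM in KO3. A single library set the last value, as KO3-2 held 37 of the 38 control counts (8.73 CPM), more than any lesion with NK cells (0 to 2.62 CPM). KO3-2 had no count of Ncr1, Gzma, Gzmb, Xcl1, Il2rb, Klre1 or Nkg7. The log2 fold change was 0.29 ± 2.01 with all lesions, 6.39 ± 1.55 without KO3-2 and -1.22 ± 2.39 without KO3-1. With NK cells Prf1 had 74 counts in 5 of 7 lesions, and 36 of them were in NK2-3.

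Nkg7 (chromosome 7, 43437073 to 43438249), a granule membrane protein needed for full granule release, was the scarcest member. Its counts were 21 with NK cells against 7 without, or 0.476 and 0.285 CPM in NK1 and NK2 and 0.167, 0.0219 and 0 CPM in KO1, KO2 and KO3. The fitted log2 fold change was 2.33 ± 1.53 with all lesions, 1.41 ± 1.70 without NK1-1, and 4.53 ± 1.76 without KO1-1 and KO1-3. KO1-3 held 5 of the 7 control counts, as many as NK1-1, and 2 of 7 lesions with NK cells were above every control lesion.

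Xcl1 (chromosome 1, 164931644 to 164935527), the chemokine lymphotactin, had 1.71 and 2.50 CPM in NK1 and NK2 and 0.195, 0.0439 and 0 CPM in KO1, KO2 and KO3. Its log2 fold change was 4.51 ± 1.30, the third of the 10 in size, and 5.54 ± 1.36 without KO1-1 and KO1-3. Xcl1 was above every control lesion in 6 of 7 lesions with NK cells, NK1-3 included with 2 counts, and NK1-2 had none. Of the 9 control counts, 6 were in KO1-3, 2 in KO2-1 and 1 in KO1-5. The gene overlaps Gm20743 on the other strand, and how strands were handled was not given in the sources used here. Gm20743 had 25 counts in NK1-2, where Xcl1 had none, and at most 1 count in any other lesion with NK cells.

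**Figure D3:**
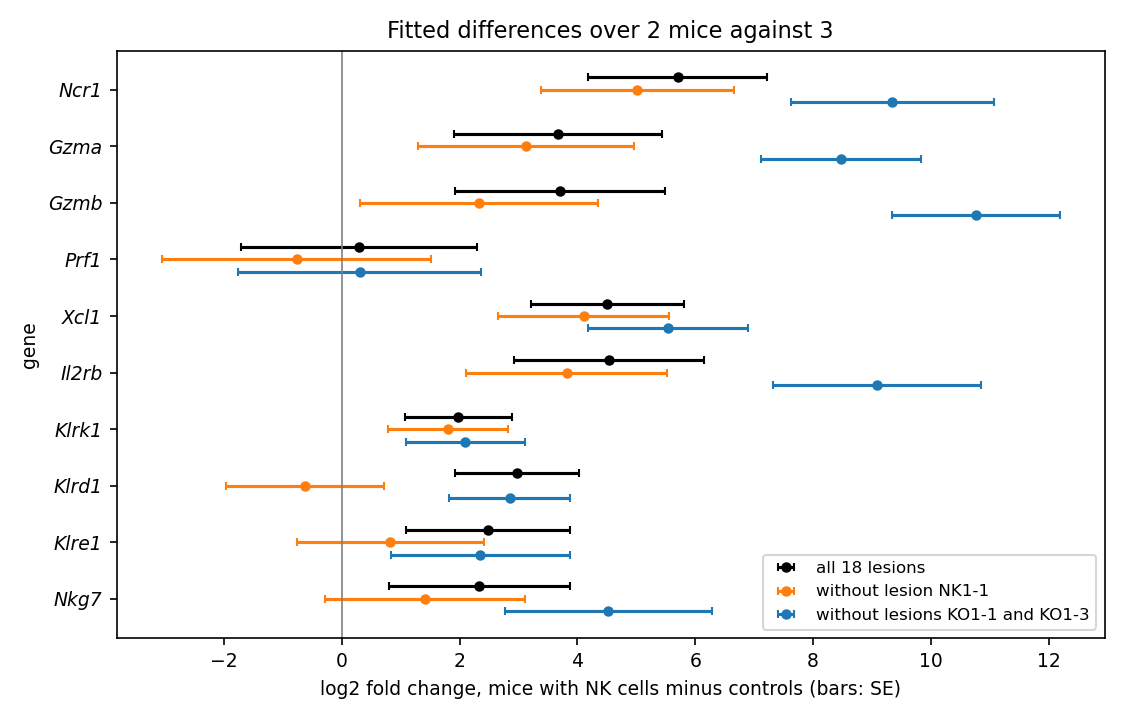
Fitted log2 fold change of each gene between mice with NK cells and controls (x axis) with SE bars, for all lesions (black), without NK1-1 (orange) and without KO1-1 and KO1-3 (blue). Only Klrd1 and Prf1 turn below 0 without NK1-1, and the blue values of Ncr1, Gzmb and Il2rb are set by a prior count, since their remaining control lesions hold 0 counts.

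Levels can be compared between genes only per length, here as CPM per kilobase of all annotated exons of a gene. In the mice with NK cells Gzma was highest at 7.66 ± 1.88 (SD, n = 2 mice), followed by Klrd1 at 7.36 ± 8.93, Gzmb at 5.51 ± 2.43 and Xcl1 at 4.03 ± 1.06. No neighbouring pair among these 4 differed beyond its spread, although Gzma exceeded Xcl1 by more than either SD. Ncr1 followed at 1.92 ± 0.434, below Xcl1 by more than either SD. The remaining genes were lower than Ncr1 by more than its SD, with Il2rb at 0.574 ± 0.130, Prf1 at 0.495 ± 0.134, Nkg7 at 0.417 ± 0.147, Klrk1 at 0.278 ± 0.0743 and Klre1 at 0.231 ± 0.175, and neighbours among these 5 did not differ beyond their spread. Klrk1 has 7183 bases of annotated exon, so its value per kilobase is low if most transcripts use fewer of them.

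The lesions of a mouse differed widely in how much of this signal they held. NK1-1 had 77.9 CPM summed over the 10 genes, while NK1-2 had 8.93 CPM and NK1-3 5.04 CPM from 22 and 7 counts. The 4 lesions of NK2 ran from 12.8 CPM in NK2-2 to 36.0 CPM in NK2-3. Each NK2 lesion and NK1-1 had counts of all 10 genes, whereas NK1-2 had 4 and NK1-3 had 3. KO3-2 (10.2 CPM), KO1-3 (8.15 CPM) and KO1-1 (7.11 CPM) were the highest controls. All of them exceeded NK1-3, and KO3-2 exceeded NK1-2 as well.

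Leaving out Klrk1, Klrd1 and Klre1 lowered the control sums, as follows from their counts in controls, but did not part the groups. KO3-2 (8.73 CPM) was then above both NK1-3 and NK2-2 (7.94 CPM). The other 7 genes then summed to 2.16, 18.6 and 44.8 CPM (lowest, median and highest) with NK cells and to 0, 0.115 and 8.73 CPM in controls. The 3 controls above 1 CPM were KO3-2 with Prf1 alone, KO1-3 at 7.61 CPM and KO1-1 at 5.16 CPM. In these last 2 lesions Gzma and Gzmb took 75.2% of the 10-gene counts in KO1-3 (exact interval 65.9% to 83.1%) and 60.3% in KO1-1 (48.1% to 71.5%). In the lesions with NK cells they took 72.7% of 22 counts in NK1-2 (49.8% to 89.3%), 38.1% in NK1-1, 36.1% to 55.1% in the NK2 lesions and 0% of 7 counts in NK1-3. In 7 of the 9 other controls the 3 Klr genes made up 84.6% to 100% of a 10-gene total of 9 to 47 counts. Without KO1-1 and KO1-3 no member passed (edgeR, adjusted p = 0.998 for each). The count at an unadjusted p under 0.05 was then 7 of 10 (2.13% of all genes) and the median log2 fold change 5.03, but these 2 lesions were picked for their counts of the 10 genes, so nothing is read from that shift.

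**Figure D4:**
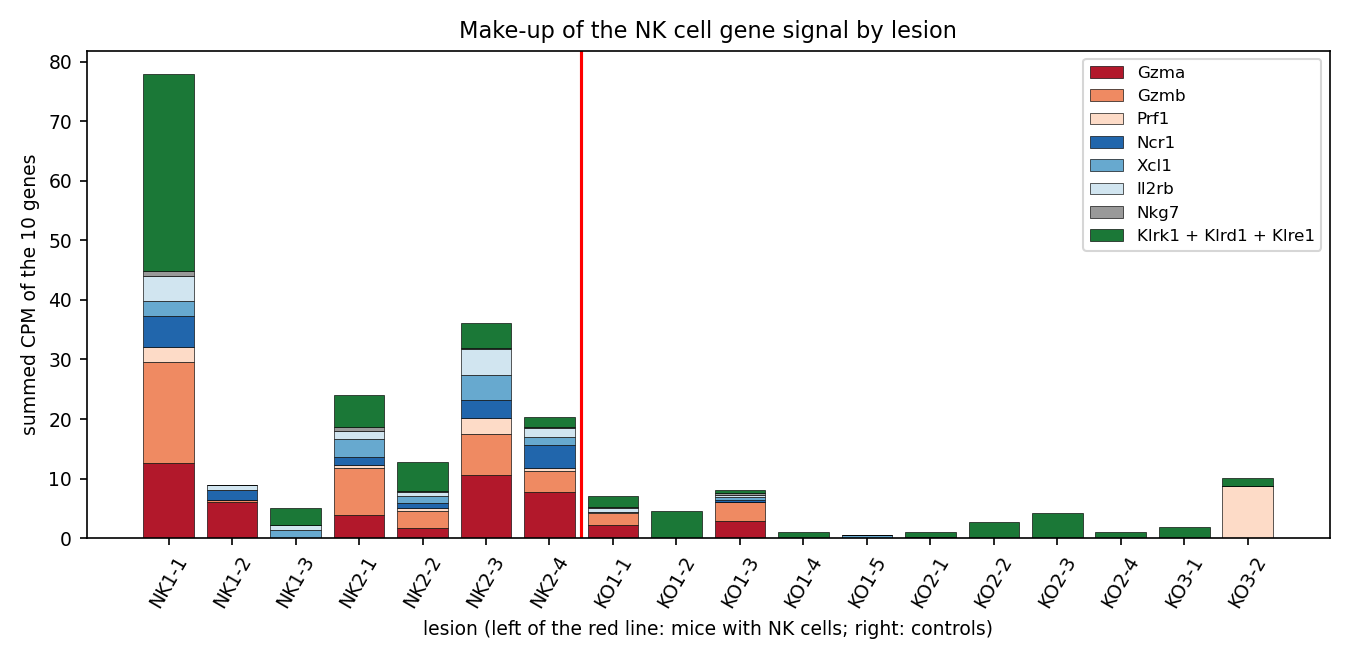
Summed CPM of the 10 genes (y axis) in each lesion (x axis), split by gene, with the 3 Klr genes as 1 class and the red line between mice with NK cells and controls. NK1-1 is the tallest at 77.9 CPM, granzymes (reds) appear among controls in KO1-1 and KO1-3, and the Klr genes (green) make up most of the small bars of the other controls.

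Further granzymes were read in the same lesions. Gzmc, chosen after its values were seen, is a granzyme of activated killer lymphocytes and averaged 22.4 ± 8.03 CPM (SD) in the 2 mice with NK cells against 0.659 ± 1.14 CPM in the 3 controls. Counts were present in all lesions with NK cells except NK1-2, and among controls only in KO1-1 (33 counts, 3.21 CPM) and KO1-5 (38 counts, 17.4 CPM). The lesions thus overlapped, as KO1-5 was above NK1-2, NK1-3, NK2-1 and NK2-2 (0 to 15.2 CPM). Its log2 fold change was 5.0 ± 1.74 (edgeR, adjusted p = 0.9998). Gzmc counts in KO1-5 came without any of the other granzymes named here, and in KO1-3, with 79 counts of Gzma and Gzmb, Gzmc had 0.

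Gzmd, Gzme, Gzmf and Gzmg, also chosen after their values were seen, were almost confined to 1 lesion of each group. NK1-1 held 112, 26, 255 and 385 counts of them and KO1-1 held 15, 13, 30 and 15. The only other counts in the 18 lesions were 8 of Gzmf in NK2-1. In the NK2 lesions, with 66 to 241 counts of Gzma and Gzmb each, Gzmd, Gzme and Gzmg had 0. These genes lie in 1 cluster with Gzmb and Gzmc on chromosome 14, and up to 6.83% of their 75-base stretches occur in another gene, so reads can be split among them, whereas 0% of those of each of the 10 members and of Gzmc do.

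**Figure D5:**
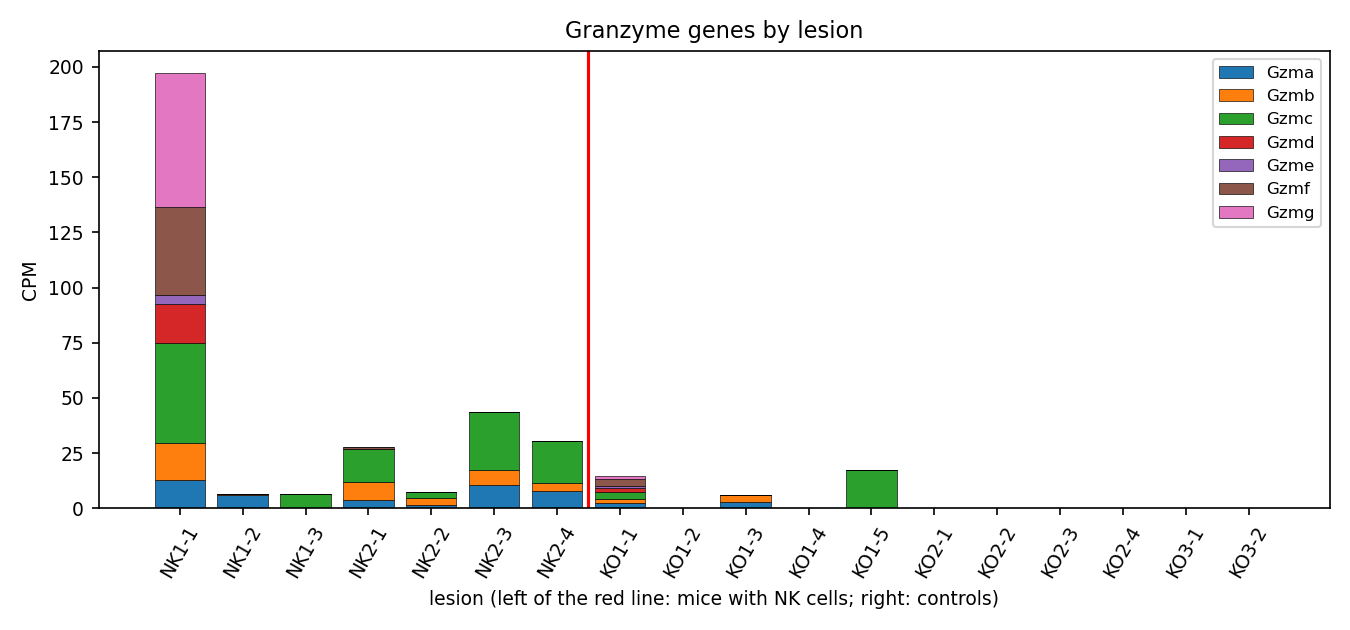
CPM of 7 granzyme genes (y axis) in each lesion (x axis), stacked by gene, with the red line between mice with NK cells and controls. Gzmc is present in 6 of 7 lesions with NK cells, and Gzmd to Gzmg appear in NK1-1 and KO1-1, with 8 counts of Gzmf in NK2-1.

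Other genes of NK cells were read from 7 lists chosen with earlier results known, and none of their members passed the test. Counts of members with both mice above or below all controls are set against 7.94% (above) and 6.86% (below) of all genes. Of 27 other NK receptors, 25 had counts and 13 were tested, of which 3 were above (Klri2, Klra3 and Klra8) and 1 below (Klra17), with a median log2 fold change of 0.40. The most counted of them, Fcgr3, Cd244a, Klra4 and Klrb1b, had -0.42 ± 0.485, -1.78 ± 0.855, 0.74 ± 0.721 and 0.77 ± 0.886. Fcgr3 is the IgG receptor that myeloid cells share. Klri2, a partner of KLRE1, had 33 counts in the NK transferred group and 4 in Ctrl (4.03 ± 1.41). Klra8 encodes the activating receptor Ly49H and had 41 and 3 counts (4.96 ± 1.70), but 19.7% of its 75-base stretches occur in other genes. Klrb1c, the NK1.1 antigen, was not tested and had 74 of its 75 counts in NK2-1, NK2-3 and NK2-4, 1 in NK2-2 and 0 in all lesions of NK1, beside 9 counts in controls, 5 of them in KO1-1. Klrc1, which encodes the NKG2A partner of CD94, had 14 counts with NK cells against 0 in Ctrl, at least 6.58-fold higher with a floor of 3 counts over the controls.

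Signalling adaptors and granule handling genes, most of which myeloid cells share, gave no such pattern. Of 12 adaptors and signalling genes tested, 0 were above and 0 below (median -0.37), and Fcer1g, Tyrobp, Lcp2 and Syk had log2 fold changes of -1.28 ± 0.672, -0.42 ± 0.494, 0.14 ± 0.644 and -0.33 ± 0.478. Of 14 other granule and death effectors, 1 was above (Gzmc) and 1 below (Stxbp2, -0.99 ± 0.537), with a median of 0.10. Ctsc, the protease that activates granzymes, had 0.38 ± 0.381, Srgn, the granule proteoglycan, -0.17 ± 0.659, and Rab27a -0.53 ± 0.598.

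Among 5 cytokines and chemokines tested 1 was above, Ccl5 (1.08 ± 0.869), and the median was -0.14. Ccl4, Ccl3 and Tnf had -0.14 ± 1.14, 0.24 ± 1.17 and -1.89 ± 1.26. Ifng, the chief NK cytokine, had 4 counts with NK cells against 1 without and was not tested. Of 8 cytokine receptors 1 was above (Il2rg) and 1 below (Il18rap, -0.62 ± 0.402), with a median of -0.43. Il18r1, Il15ra and Il21r had -0.62 ± 0.688, -0.24 ± 0.556 and -3.77 ± 2.23, and 301 of the 319 control counts of Il21r were in KO3-1.

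Transcription factors and trafficking genes were read mostly at levels that both groups shared. Of 9 transcription factors 1 was above, Ets1 (0.29 ± 0.347), with a median of 0.29, beside Zeb2 at -0.35 ± 0.500, Id2 at 0.30 ± 0.418 and Ikzf2 at 1.44 ± 0.760. The factors that define the lineage were near 0, with 6 and 12 counts of Eomes and 11 and 1 of Tbx21 in mice with NK cells and controls. Of 10 trafficking and maturation genes 1 was below, Cx3cr1 (-0.93 ± 0.632), with a median of -0.67, beside Itgam at -0.58 ± 0.645.

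Markers of other cells that can carry the same transcripts were read in the same fit, and no marker passed. Activated T cells can express several of the 10 genes. Of 11 T cell markers Cd3e, Cd3g and Cd6 had 0 counts in all 18 lesions, and the summed level was 1.21 to 1.71 CPM in mice with NK cells and 0 to 4.70 CPM in controls. KO2-4 held 97 of the 98 control counts of Cd8a and had 0 counts of Gzma and Gzmb. Trbc1 was the exception among 3 tested (38 counts with NK cells and 7 in controls, 3.57 ± 1.72), while Trac and Cd4 had -1.53 ± 1.73 and -2.78 ± 1.87, and 34.6% of the 75-base stretches of Trbc1 occur in other genes. B cell markers summed to 9.31 to 24.2 CPM and 8.52 to 19.8 CPM, and markers of group 2 innate lymphoid cells to 20.5 to 44.4 CPM and 20.3 to 35.3 CPM, with Il13 at 0 throughout.

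Mast cell and basophil markers, whose cells can hold granzymes, summed to 14.8 to 62.9 CPM in mice with NK cells and 6.18 to 13.4 CPM in controls. By lesion NK1-2 (156 CPM) and NK1-1 (43.8 CPM) were highest and NK1-3 had none. Cma1, mast cell chymase, had 322 counts with NK cells, 160 of them in NK1-2, and 0 in controls, at least 151-fold higher with a floor of 3 counts over the controls. The other 2 tested members of the list did not share this pattern, as Mcpt8, a basophil protease, had 0 counts with NK cells against 39 in Ctrl, and Kit had 836 and 1094 counts (-0.17 ± 0.664). Over the 3 tested members the median log2 fold change was -0.17. Members that did not pass the filter included 3 more mast cell genes, whose counts lay almost wholly in mouse NK1. Cpa3 had 132 counts with NK cells against 3 in Ctrl, Mcpt4 122 against 0 and Tpsb2 67 against 0, mostly in NK1-1 and NK1-2. In the NK2 lesions Mcpt4 and Tpsb2 had 0 counts and Cpa3 had 2, in NK2-4. Ms4a2, also not tested, had 10 against 6. The list sums of the 4 NK2 lesions, at 10.6 to 15.5 CPM, lay within the control range of 2.74 to 20.5 CPM. Kit can dominate such a sum: in NK2-4 it had 237 of the 266 counts, beside 27 of Cma1. The part of mast cells in the granzyme counts was not tested.

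The remaining lists describe the tissue that was captured. Summed levels per mouse with NK cells and in controls were 2253 to 3411 and 1487 to 2961 CPM for macrophages and monocytes, and 306.0 to 355.0 and 274 to 350.4 CPM for plasmacytoid dendritic cells. Mammary carcinoma epithelium had 141 to 238 and 140 to 237 CPM, and lung epithelium 2125 to 4512 and 1289 to 11790 CPM. Fat cells had 199 to 637 and 45.7 to 179 CPM, and heart muscle 2.07 to 109 and 0.696 to 7.88 CPM. Neutrophil markers summed to 267 to 572 CPM with NK cells and 326 to 2919 CPM in controls, so the mice overlapped, and 5 of 8 were below all controls in both mice, with Mmp9 at -2.29 ± 0.729 and Csf3r at -2.26 ± 0.652. Ltf, lactoferrin, differed from these at 0.58 ± 1.53, and 4732 of its 4949 counts in mice with NK cells were in NK1-1. KO1-1 (228 CPM) and KO1-3 (348 CPM) were among the control lesions with low neutrophil sums, within the range of lesions with NK cells (127 to 863 CPM), but so were KO1-2 (204 CPM), KO1-4 (407 CPM) and KO1-5 (312 CPM).

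Genes outside all lists were ranked by how closely their level followed the summed 10 genes over the 18 lesions. Over 14431 genes the 8 highest Spearman correlations were those of AI464131 (0.85), Col6a3 (0.80), Prorsd1 (0.79), Catsper2 (0.79), Agtr2 (0.76), Rab33b (0.76), Hspb6 (0.75) and Spry1 (0.75). The points share hosts and depth, so these values are a description. Within the 7 lesions with NK cells Col6a3, a collagen VI chain, kept 0.21 and Rab33b 0.11, whereas Catsper2 had 0.96 and Prorsd1 0.86. Agtr2, the type 2 angiotensin receptor, had 104 counts with NK cells against 0 in Ctrl, at least 48.9-fold higher with a floor of 3 counts over the controls, and a correlation of 0.32 within the 7 lesions.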

How the data were processed

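The submitters' processing notes name the tools STAR, RSEM 1.2.28, DESeq2 and bcl2fastq 2.17 and the build mm10. Libraries were made from 2 ng of RNA with a kit meant for single cells, per the labels' protocols. The authors deposited expected counts (estimated counts per gene, not scaled), rounded here, and a table of normalized log2 values by the authors, of a transformation not given in the sources used here, used only as an alternative. There were 0 columns of other samples.

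Animal numbers in the deposited annotation matched the 5 mice in the titles, and counts were summed per mouse. Mice of 1 group are separate animals. Every pair of lesions of a mouse differed by more than counting error (lowest chi-square per degree of freedom 21.0). Reads without molecular identifiers are not independent molecules, so that value does not part lesion differences from noise of library making. Genes passing filterByExpr (minimum count 10, minimum total 15) entered edgeR 4.0.16 in R 4.3.3 (TMM, quasi-likelihood F test, robust). Benjamini-Hochberg adjustment covered 16917 genes, with a threshold of 0.05. The fit was also run on simulated data. Changes were simulated only in genes with more counts than most of the 10 members, and with a common spread. Nothing is therefore read from that run for the members. SE is the size of the log2 fold change divided by the square root of F. With 2 mice against 3, p-values rest on a spread shared between genes (common coefficient of variation 64.9%). CPM uses TMM-scaled library sizes. Levels are mean ± SD over mice.

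Alternatives used limma 3.58.1, DESeq2 1.42.0, other scalings and filters, and left out mice or lesions. The members and lists were chosen with earlier results of these data known. Named genes were the 10 members, Il2rg, Rag1, Rag2 and mt-Rnr2, the 4 most counted members of each list, and the 8 genes most correlated with the summed members (log2(CPM + 1), genes with 10 counts in at least 4 lesions); any other was named after its values were seen, and a few genes under this rule are not reported here. Lists covered 7 groups of NK cell genes and 11 cell types: T cells, B cells, group 2 innate lymphoid cells, mast cells and basophils, macrophages and monocytes, neutrophils, plasmacytoid dendritic cells, mammary carcinoma epithelium, lung epithelium, fat cells and heart muscle. Gene positions are GENCODE M21 on GRCm38; 49326 of 49585 identifiers matched a symbol.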

Additional observations from a re-analysis of the deposited data

Results flagged for a closer look

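In the 7 lesions of mice with NK cells, NK1-1 stood apart from the others by Dixon's ratio (gap to the nearest lesion over the whole range, compared with the 95% critical value for 7 samples) for Klrd1 at 0.947, for Klre1 at 0.681 and for the summed CPM of the 10 genes at 0.575. NK1-1 had 29.0 CPM of Klrd1 beside 0 to 1.53 CPM in the other 6 lesions. It had 2.05 CPM of Klre1 beside 0 to 0.654 CPM, and 77.9 CPM over the 10 genes beside 5.04 to 36.0 CPM. Chance flags about 1 in 20 groups of independent samples. These 7 lesions come from 2 mice and are not independent, so the flags are a description. The flag of the summed CPM is not separate from that of Klrd1, which gave 29.0 of the 77.9 CPM. The other 8 genes did not pass this value. Klrd1 and Klre1 are neighbours on chromosome 6, and the third neighbour, Klrk1, had 2.05 CPM in NK1-1, between the other lesions.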

How the results depend on the processing

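The number of genes called was 0 with all lesions, 224 without a filter on low counts, 39 with DESeq2 and 7 with the replicate block by mouse number, and 0 to 2 when a mouse or lesion was left out (2 without mouse NK2). Of the 10 genes 3 were called without a filter, all higher: Ncr1 (adjusted p = 0.0188), Gzmb (0.0254) and Gzma (0.0285), against 0.535% of 26158 genes. DESeq2 called 1, Ncr1 (adjusted p = 0.0230), against 0.154% of 17521 genes with an adjusted p. The replicate block called 0 of the 10. Mouse numbers only name the mice, and the deviations of same-numbered mice correlated at 0.10 and 0.29. The members with both mice above all controls numbered 5 to 9 when a mouse or lesion was left out (5 without NK1-1) and 0 under a filter of 10 counts in 9 lesions, which kept only Klrd1. Prf1 ranged from -1.22 without KO3-1 to 6.39 without KO3-2, and Klrd1 from -0.63 without NK1-1 to 3.88 without mouse NK2. The other 8 genes kept a positive log2 fold change in every alternative that gave a value; Gzma and Gzmb, for example, ran from 3.07 and 2.32 to 10.9 and 10.9 when a mouse or lesion was left out, both highest without mouse KO1. The authors' log2 table and equal weight per lesion gave smaller medians over the 10 genes, 1.12 and 2.04. The fit without KO1-1 and KO1-3 was added after seeing the data. Depth limits NK1-3 and NK1-2 most, where 1 count was 0.720 and 0.406 CPM.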
